A study of Mus musculus with 7 samples.

Results

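The promoters of 9 genes of the insulin signalling pathway were examined in 3 lists of DNase-Seq peaks from cultured mouse podocytes: *Insr*, *Igf1r*, *Irs1*, *Irs2*, *Pik3ca*, *Pik3r1*, *Akt1*, *Akt2* and *Foxo1*. A peak was assigned to a gene when it overlapped 500 nt on either side of the transcription start site (TSS) of any of its protein-coding transcripts. The 9 genes have 28 distinct TSSs, and the lists of NG, HG+NT and HG+miR-93 had 18, 19 and 19 peaks at them, out of 1036304, 846027 and 900109. For comparison, 21811 of 21842 protein-coding genes had a promoter peak in each of the 3 lists.

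Insulin and IGF-1 bind the receptor tyrosine kinases encoded by *Insr* and *Igf1r*, which phosphorylate the docking proteins encoded by *Irs1* and *Irs2*. These recruit PI3-kinase, a dimer of a catalytic subunit (*Pik3ca* encodes p110α) and a regulatory subunit (*Pik3r1* encodes p85α and its shorter isoforms), whose lipid product leads to activation of the kinases encoded by *Akt1* and *Akt2*. Active Akt phosphorylates the transcription factor encoded by *Foxo1* and keeps it out of the nucleus. Podocytes, the epithelial cells that wrap the glomerular capillaries, respond to insulin through this pathway.

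The cells were differentiated podocytes of a conditionally immortalised line, grown for 36 h at a glucose concentration of 5 mM (NG, no mimic) or 25 mM. The latter received 50 nM of either a non-targeting mimic (HG+NT) or the miR-93 mimic (HG+miR-93). NG against HG+NT is called the glucose step and HG+NT against HG+miR-93 the mimic step. The glucose step also added a non-targeting mimic, and the effects of the 2 cannot be told apart. Each condition had 2 replicates, and 1 sample of genomic DNA was the input of all lists. The authors deposited 1 joint list per condition. Single replicates were not analysed here, so the spread between them is unknown and differences between conditions were described but not tested.

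The lists were 2.24, 3.85 and 5.15 times as deep as the input, in the order NG, HG+NT and HG+miR-93, an order that is kept throughout. They hold very weak peaks: the −log10 q was 0 at every peak of the 9 genes, and their highest −log10 p was 3.65, 2.69 and 2.42. By promoter pileup, the podocyte gene *Nphs1*, which encodes nephrin, was below the middle of all genes in each list (percentiles 31.2, 40.2 and 44.5). The medians over 6 podocyte genes were 56.5, 61.3 and 60.1, against 47.4, 37.6 and 36.7 for 4 endothelial, 38.0, 56.97 and 44.5 for 3 mesangial and 47.4, 49.3 and 55.1 for 4 tubule genes. The podocyte genes thus had the highest median in each list, over few genes.

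The promoter sequences described here came from RefSeq (GRCm38.p6) and were not used for the pileups, folds and percentiles. RefSeq entries were matched for 8 of the 9 genes, 13 entries of 32851 in all, and none was matched for *Insr*. Each entry holds 250 bases before and 50 bases after a start. Shown are the 150 bases before the start for *Irs1* and *Irs2*, which shared a pair of motifs, for *Foxo1* and *Akt1*, whose ranks differed most between the lists, and for *Pik3ca*, the gene with an AP-1 match. Capitals mark GGGCGG (GC box), CAAAACA (core of the insulin response element), CACGTG (E-box) and TGANTCA (AP-1), each on either strand, so that TGTTTTG and CCGCCC are the same matches read from the other strand. In the *Foxo1* stretch, 1 base next to the RefSeq start was left out because the GENCODE start lies there.
Irs1, chr1:82291440-82291589, minus strand: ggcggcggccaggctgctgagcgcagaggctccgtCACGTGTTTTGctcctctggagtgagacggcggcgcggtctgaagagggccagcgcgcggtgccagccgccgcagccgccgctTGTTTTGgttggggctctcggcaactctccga
Irs2, chr8:11008930-11009079, minus strand: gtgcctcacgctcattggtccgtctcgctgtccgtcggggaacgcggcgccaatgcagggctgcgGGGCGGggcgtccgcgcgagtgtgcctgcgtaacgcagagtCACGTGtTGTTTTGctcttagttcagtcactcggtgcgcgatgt
Foxo1, chr3:52268186-52268335, plus strand: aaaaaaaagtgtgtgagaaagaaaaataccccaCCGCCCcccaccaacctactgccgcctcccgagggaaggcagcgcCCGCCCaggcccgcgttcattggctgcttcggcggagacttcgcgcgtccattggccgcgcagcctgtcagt
Akt1, chr12:112674277-112674426, minus strand: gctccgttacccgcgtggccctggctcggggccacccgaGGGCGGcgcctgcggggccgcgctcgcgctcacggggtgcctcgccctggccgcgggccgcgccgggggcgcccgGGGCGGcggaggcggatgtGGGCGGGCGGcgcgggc
Pik3ca, chr3:32396915-32397064, plus strand: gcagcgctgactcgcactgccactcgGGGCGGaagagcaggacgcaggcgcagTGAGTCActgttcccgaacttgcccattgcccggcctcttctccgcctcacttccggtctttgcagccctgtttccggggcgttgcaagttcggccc

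The promoters of *Irs1* and *Irs2*, which encode the docking proteins, were the member promoters with an E-box or an insulin response element core, and both held the pair side by side. In *Irs1* the E-box began 115 bases before the start and overlapped a CAAAACA match whose first base was 111 bases before it, and a further CAAAACA match lay 32 bases before the start. In *Irs2* the E-box began 44 bases and the CAAAACA match 37 bases before the start, with 1 base between them. Of all 32851 promoters, 7.15% held CACGTG, 6.28% held CAAAACA and 0.408% held both, and in 9 promoters (0.0274%), *Irs1* and *Irs2* among them, the first bases of the 2 motifs were at most 10 nt apart. A match is a description of letters and not a measured site, and the pair was noticed after the sequences had been seen.

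GC boxes were found in 8 of the 13 member promoters, at least 1 for each of the 8 genes, against 35.7% of all promoters. TGANTCA was found at *Pik3ca* (7.81% of all promoters), GTAAACA, the FOXO element, at an alternative start of *Akt1* (3.65%), and TGACGT, the core of the cAMP response element, in none of the 13 (7.51%). The main promoters were rich in G and C: 79.7% at *Akt1*, 76.0% at *Igf1r*, 75.7% at *Pik3r1*, 72.0% at *Irs2*, 71.3% at *Irs1*, 63.3% at *Pik3ca* and 61.3% at *Foxo1*, against a median of 52.7% over all promoters. The first *Akt2* start had 50.0%. The ratio of observed to expected CpG had a median of 0.674 over the 13 promoters and of 0.384 over all. The GC content and CpG ratio were not corrected for in the values below.

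Accessibility was read in 2 ways. MACS2 gives the fold of a peak as (pileup + 1) / (input mean + 1) at its summit. The listed fold and p of a peak were solved for the input mean and for the pileup, which is the number of DNase fragments at the summit scaled to the depth of the input. The highest pileup among a gene's promoter peaks is given with its exact 95% Poisson interval, which holds counting error alone. The highest fold is given as a percentile among the 21811 genes.

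By the highest pileup among their promoter peaks, all 9 genes were above the median of all genes (5.81, 4.93 and 4.86) in each list. For *Akt1* in HG+miR-93 this rests on a peak with its summit 11980 nt inside another start. The peak over its main start, 112674276, had 4.66, below the median of that list. The median pileups of the 9 genes were 11.2, 9.09 and 7.97, with median percentiles of 88.3, 86.1 and 86.1. The lowest percentile of a member was 64.9 (*Irs1*), 73.3 (*Akt1*) and 55.4 (*Akt1*). The 48 other pathway genes, listed by role, had median pileups of 8.26, 6.75 and 6.51, and 35, 32 and 36 of them were above the median of their list. At each of the 9 genes the intervals of the 3 lists overlapped in all 3 pairs. Within a list, the intervals of 2 genes overlapped in all 36 pairs in NG and HG+NT, and in HG+miR-93 *Irs2* and *Akt1* were the 1 pair of 36 that did not overlap. These overlaps were not counted over all genes, so they are not shown to be a trait of the 9.

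**Figure D1:**
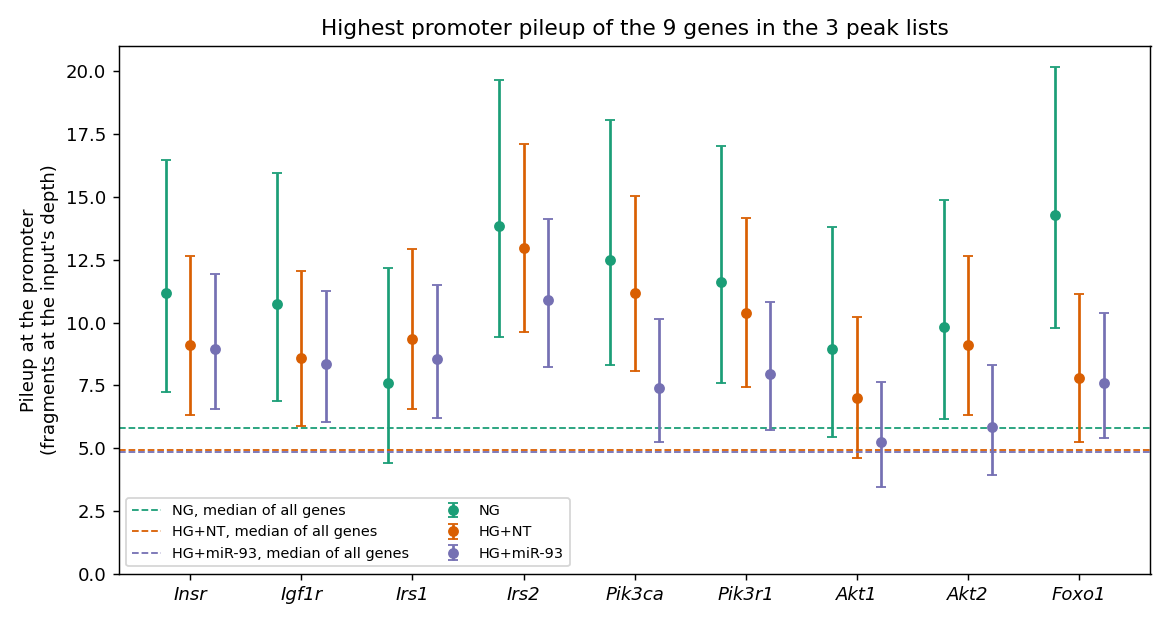
Highest promoter pileup (vertical axis, fragments at the depth of the input, from 0) of the 9 genes in the 3 lists. Points are single values from 1 joint list, bars are 95% exact Poisson intervals, and dashed lines are the medians of all genes. All points lie above the median of their list, and the 3 bars of each gene overlap, which was not counted over all genes. The HG+miR-93 point of *Akt1* is from a peak with its summit 11980 nt inside another start, and its main start had 4.66.

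The receptor genes were close to each other. *Insr* (chromosome 8, 3122061 to 3279617, minus strand) had 25, 35 and 46 fragments at its summit, giving pileups of 11.2 (7.23 to 16.5), 9.09 (6.33 to 12.6) and 8.94 (6.54 to 11.9). Its summits lay 12, 2 and 42 nt inside the TSS at 3279617, in the untranslated first exon, so that the 3 lists measured positions within 40 nt of each other. The internal *Insr* start at 3192717 had pileups of 4.02, 3.38 and 4.28, lower than at the main start in each list. *Igf1r* (chromosome 7, 67952827 to 68233668, plus strand) had 24, 33 and 43 fragments and pileups of 10.7 (6.87 to 15.9), 8.57 (5.90 to 12.0) and 8.36 (6.05 to 11.3). Its summits lay 531, 1365 and 1346 nt upstream of the GENCODE start, and the first was 39 nt inside the RefSeq start at 67952257.

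The docking protein genes had different orders. *Irs1* (chromosome 1, 82233101 to 82291416, minus strand) had pileups of 7.59 (4.42 to 12.2), 9.35 (6.55 to 12.9) and 8.55 (6.21 to 11.5) from 17, 36 and 44 fragments, the lowest value in NG. The NG summit lay in the untranslated exon, 724 nt inside the start, while those of HG+NT and HG+miR-93 lay 125 and 213 nt upstream of it. The HG+NT summit, at 82291541, was thus beside the CAAAACA match at 82291544 to 82291550 in the printed sequence. *Irs2* (chromosome 8, 10984681 to 11008458, minus strand) had the highest member pileup in both high glucose lists, with 13.8 (9.41 to 19.7), 13.0 (9.64 to 17.1) and 10.9 (8.22 to 14.1) from 31, 50 and 56 fragments. Its summits lay 811, 908 and 747 nt upstream of the GENCODE start, which is 340, 437 and 276 nt upstream of the RefSeq start, in the overlapping noncoding gene *9530052E02Rik*. The HG+miR-93 peak of *Irs2* had 2 solutions for its fragments, and that with an input mean on the grid of the other peaks was taken.

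The PI3-kinase genes had their pileup at the start of the long transcripts. *Pik3ca* (chromosome 3, 32397671 to 32468486, plus strand) had pileups of 12.5 (8.31 to 18.1), 11.2 (8.08 to 15.0) and 7.38 (5.23 to 10.1) at its upstream start, from 28, 43 and 38 fragments. These summits lay 50 nt before and 113 and 19 nt after the RefSeq start that follows the printed sequence. At the internal starts of *Pik3ca*, the pileup was 2.60 to 3.57. *Pik3r1* (chromosome 13, 101680563 to 101768217, minus strand) had pileups of 11.6 (7.59 to 17.0), 10.4 (7.42 to 14.1) and 7.97 (5.72 to 10.8) at the start of its longest transcript, 101768217. At its 3 internal starts the pileup was 7.59 and 5.19 in the first 2 lists and 3.30 to 3.89 in HG+miR-93. Both genes were lowest in HG+miR-93 at their main start, with overlapping intervals, like every other member but *Irs1* and like the median of all genes.

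Of the kinase genes, *Akt1* (chromosome 12, 112653821 to 112674884, minus strand) had pileups of 8.93 (5.46 to 13.8), 7.01 (4.62 to 10.2) and 5.25 (3.46 to 7.63) from 20, 27 and 27 fragments. The NG and HG+NT summits lay 145 and 208 nt upstream of the start at 112674276. The highest HG+miR-93 value belonged to a peak of 20195 bp whose summit lay 11980 nt inside another start, in a coding exon, and the peak over the main start had 4.66 (2.99 to 6.94). *Akt2* (chromosome 7, 27591552 to 27640826, plus strand) had pileups of 9.83 (6.16 to 14.9), 9.09 (6.33 to 12.6) and 5.83 (3.93 to 8.32) at its first start, with summits 55 nt before it and 47 and 13 nt after it. The next 3 starts of *Akt2* share this peak, and at those from 27596830 onward the pileup was 3.90 to 5.44 over the lists.

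*Foxo1* (chromosome 3, 52268336 to 52353221, plus strand), the transcription factor gene of the set, had the highest member pileup in NG and a lower one in both high glucose lists. The values were 14.3 (9.78 to 20.2), 7.79 (5.26 to 11.1) and 7.58 (5.39 to 10.4) from 32, 30 and 39 fragments. The summits lay 234, 2 and 491 nt inside the GENCODE start, the last in the coding exon, and those of NG and HG+miR-93 also lay in the antisense gene *Gm20402*. By pileup, the *Foxo1* promoter was at percentile 97.1, 79.3 and 83.5.

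The glucose step compares these promoters between normal glucose without a mimic and high glucose with the non-targeting mimic. The median pileup ratio of all genes was 0.896, a log2 shift of −0.16, and the ratios below are divided by it. Of the 9 genes, 0 reached a ratio of 1.5 (9.85% of all genes) and 1, *Foxo1*, was at or below its inverse (9.98% of all genes). The *Foxo1* ratio was 0.609 (95% exact conditional interval, 0.357 to 1.03), the largest difference of a member in this step. No member's interval lay above 1 (1.56% of all genes) or below 1 (1.68%). The nearest in the other direction was *Irs1* with 1.37 (0.752 to 2.61). The other 7 ratios were between 0.876 (*Akt1*) and 1.05 (*Irs2*), and the median over the 9 was 0.997. With the fragments counted at these 9 promoters, ratios of these sizes had intervals that included 1.

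The mimic step addresses what the mimic does in high glucose. The median ratio of all genes was 0.952, and the centred ratios of the members had a median of 0.880. None of the 9 reached 1.5 or its inverse, against 3.62% of all genes in each direction, and no interval lay above 1 (0.321%) or below 1 (1.34%). The lowest ratios were those of *Akt2*, 0.673 (0.399 to 1.13), and *Pik3ca*, 0.694 (0.437 to 1.10). *Akt1* had 0.786 (0.444 to 1.39), *Pik3r1* 0.805 (0.508 to 1.28) and *Irs2* 0.880 (0.590 to 1.32). *Irs1* (0.960), *Foxo1* (1.02), *Igf1r* (1.02) and *Insr* (1.03) were near 1. At *Foxo1*, the lower pileup of HG+NT was thus followed by a like value in HG+miR-93. Among the 9, the PI3-kinase and Akt genes had the 4 lowest ratios, all with intervals that included 1, and this order was not tested. The *Akt1* ratio compares summits 14900 nt apart. Among the other pathway genes, the median ratio was 0.989 over 4 PI3-kinase genes and 0.891 over 8 kinases.

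**Figure D2:**
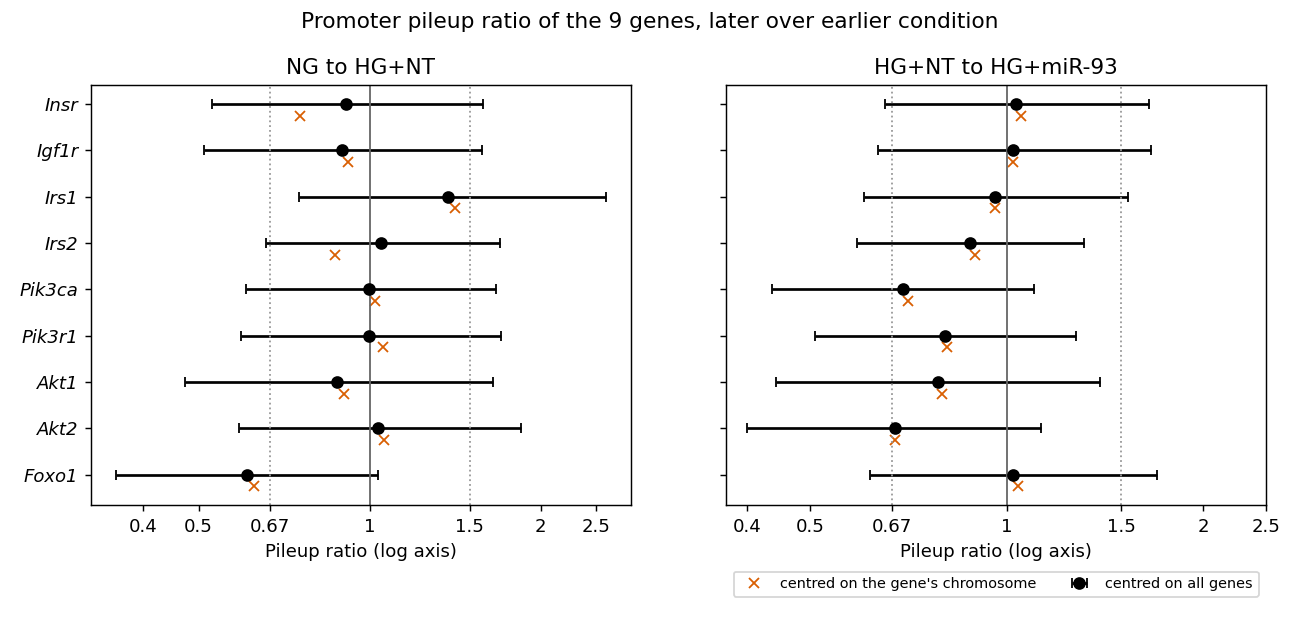
Ratio of promoter pileups (log axis) in the glucose step, left, and the mimic step, right. Black points are ratios divided by the median of all genes with 95% exact conditional intervals, orange crosses are divided by the median of the gene's chromosome, and dotted lines mark 1.5 and its inverse. Every interval includes 1.

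*Insr* and *Irs2* lie on chromosome 8, whose 1035 genes had a median centred ratio of 1.21 and a median percentile change of 11.8 points in the glucose step. Divided by the median of the chromosome, the ratio was 0.754 at *Insr* and 0.868 at *Irs2*, in place of 0.909 and 1.05. *Irs2* thus changed side of 1 with this choice. The medians of the chromosomes of the other 7 genes were 0.944 to 0.974. In the mimic step, the median of chromosome 8 was 0.982. The cause of the shift of chromosome 8 was not tested.

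Ranked by fold, the members differed much more between the lists. In the glucose step, 2 genes were higher by at least 20 points in percentile (24.6% of all genes), *Irs2* from 32.2 to 83.6 and *Pik3r1* from 29.2 to 60.4. Another 4 were lower by at least 20 points (24.5% of all genes): *Foxo1* from 84.2 to 9.43, *Akt1* from 82.8 to 11.0, *Pik3ca* from 77.1 to 30.8 and *Akt2* from 91.3 to 68.3. *Insr* (80.5 and 69.6), *Igf1r* (56.3 and 63.0) and *Irs1* (88.0 and 71.8) differed by less than 20 points. Of the docking protein genes, *Irs2* thus passed 20 points and *Irs1* did not, while both Akt genes, *Pik3ca* and *Foxo1* were lower. With the Poisson intervals of the pileups carried into the ranks and the input mean held, the change was −74.8 points (−90.5 to −27.8) at *Foxo1*, −71.8 (−90.1 to −12.6) at *Akt1* and 51.4 (−3.62 to 79.5) at *Irs2*. It was −46.2 (−79.7 to 25.5) at *Pik3ca*, 31.1 (−24.6 to 70.1) at *Pik3r1* and −23.0 (−71.5 to 24.7) at *Akt2*. The intervals of 4 of these 6 genes thus included 0. Intervals without 0 were not counted over all genes, so they are not shown to be a trait of these genes. The median change was −16.2 points over the 9 genes and 0.0917 over all. In NG the median percentile by fold was 80.5 over the 9 and 50.9 over all genes, which leaves the 9 more room below than above.

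In the mimic step, 3 were higher by at least 20 points (20% of all genes): *Akt1* to 75.9, *Foxo1* to 52.5 and *Insr* to 92.1. 1 gene, *Irs2*, was lower by as much (20.1% of all genes), at 34.7. *Igf1r* (78.8), *Irs1* (89.4), *Pik3ca* (44.4), *Pik3r1* (57.9) and *Akt2* (70.3, at a different start from that of HG+NT) differed by less. The intervals of these changes were 14.6 to 88.4 at *Akt1*, 2.74 to 77.1 at *Foxo1*, −14.7 to 63.3 at *Insr* and −73.8 to −4.71 at *Irs2*. These intervals too hold the input mean fixed and were not counted over all genes. The median change was 15.8 points over the 9 genes and 0.0275 over all. Both steps share the HG+NT list, so a value that is extreme in it enters both changes. HG+NT had the highest or lowest of the 3 percentiles at 8 of the 9 genes, all but *Igf1r*, against 62.0% of all genes.

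**Figure D3:**
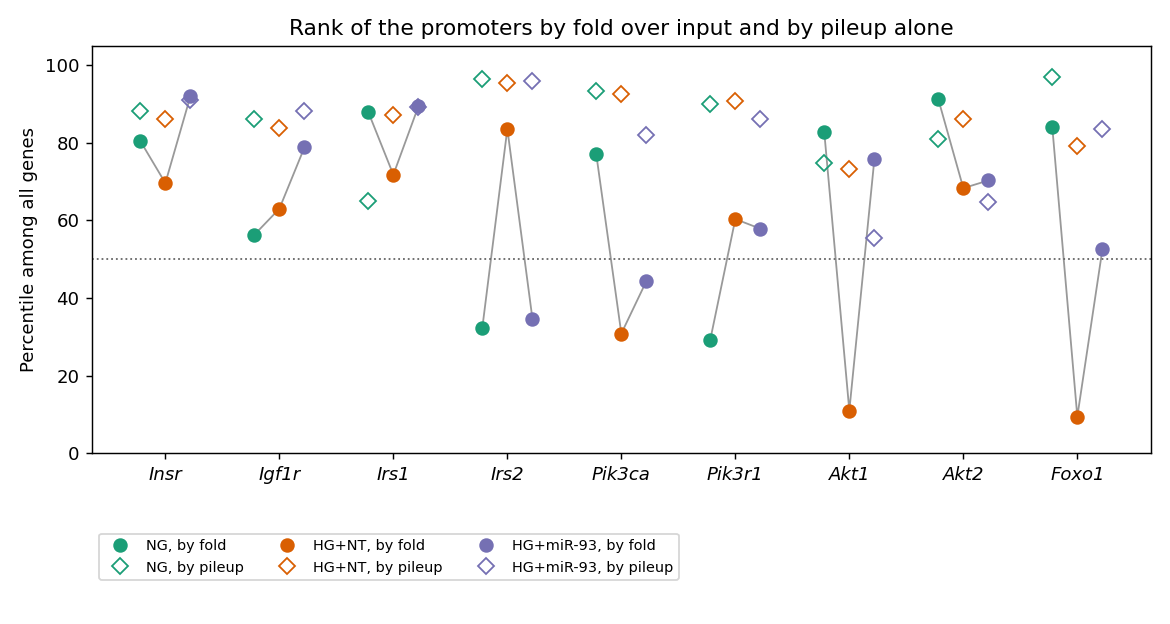
Percentile of each gene among 21811 genes (vertical axis) in the 3 lists, by the highest fold over the input (filled circles, joined by lines) and by the highest pileup (open diamonds). By fold, *Foxo1* and *Akt1* drop to 9.43 and 11.0 in HG+NT, while by pileup all 9 genes stay above 50 in every list. For *Akt1* in HG+miR-93, both values are from a peak with its summit 11980 nt inside another start.

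The fold holds the input mean at the summit as well as the pileup, and its log2 change is the change of log2(pileup + 1) less that of log2(input mean + 1). All lists used the same input sample, and its mean was taken at each list's own summit. At *Foxo1* the input mean was 5, 7 and 4. Of its log2 fold change of −1.21 in the glucose step, −0.80 was in the pileup and the rest in the input, which was 0.42 higher on the log2 scale. The log2 fold change of 0.64 in the mimic step came with a change of −0.04 in the pileup and of −0.68 in the input mean.

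At *Akt1* the input mean was 3, 6 and 2, and its log2 fold changed by −1.12 and 0.86 while log2(pileup + 1) changed by −0.31 and −0.36. The HG+miR-93 value of *Akt1* belongs to the other peak, whose summit was 14900 nt from that of HG+NT, and with principal starts alone the percentile differed by 47.1 points in the mimic step in place of 64.9. At *Irs2* the input mean was 8, 5 and 7, and log2 fold changed by 0.50 and −0.65 while log2(pileup + 1) changed by −0.09 and −0.23. At *Pik3r1*, with input means of 7, 5 and 4, log2 fold changed by 0.27 in the glucose step and log2(pileup + 1) by −0.15. At *Insr* the input mean was 4 in NG and HG+NT and 3 in HG+miR-93. The difference of 22.4 points at *Insr* in the mimic step came with a change of −0.02 in log2(pileup + 1).

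The input term was larger than the pileup term at 4 of the 9 genes in the glucose step (*Irs1*, *Irs2*, *Pik3r1* and *Akt1*, against 37.0% of all genes). In the mimic step it was larger at 7 of the 9, all but *Pik3ca* and *Pik3r1*, against 43.9% of all genes. At 2 of the 4 genes that were lower by fold in the glucose step, different sites were compared. For *Pik3ca* the highest fold in HG+NT was at an internal start (10 fragments, pileup 2.60, input mean 1.43), because at the upstream start the input mean of 8 gave a fold of 1.35. For *Akt2* the highest folds of HG+NT and HG+miR-93 were at 2 other internal starts, with 15 and 24 fragments. With principal starts alone, the percentile of *Akt2* changed by −40.0 points in the mimic step in place of 1.98. When the genes were ranked by pileup, 1 of the 9 had a percentile at least 20 points higher in HG+NT than in NG, *Irs1*, and 0 lower, against 9.91% and 10.1% of all genes. In the step to HG+miR-93, the same ranking had 0 of the 9 higher and 1 lower, *Akt2*, against 5.27% and 5.50%.

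**Figure D4:**
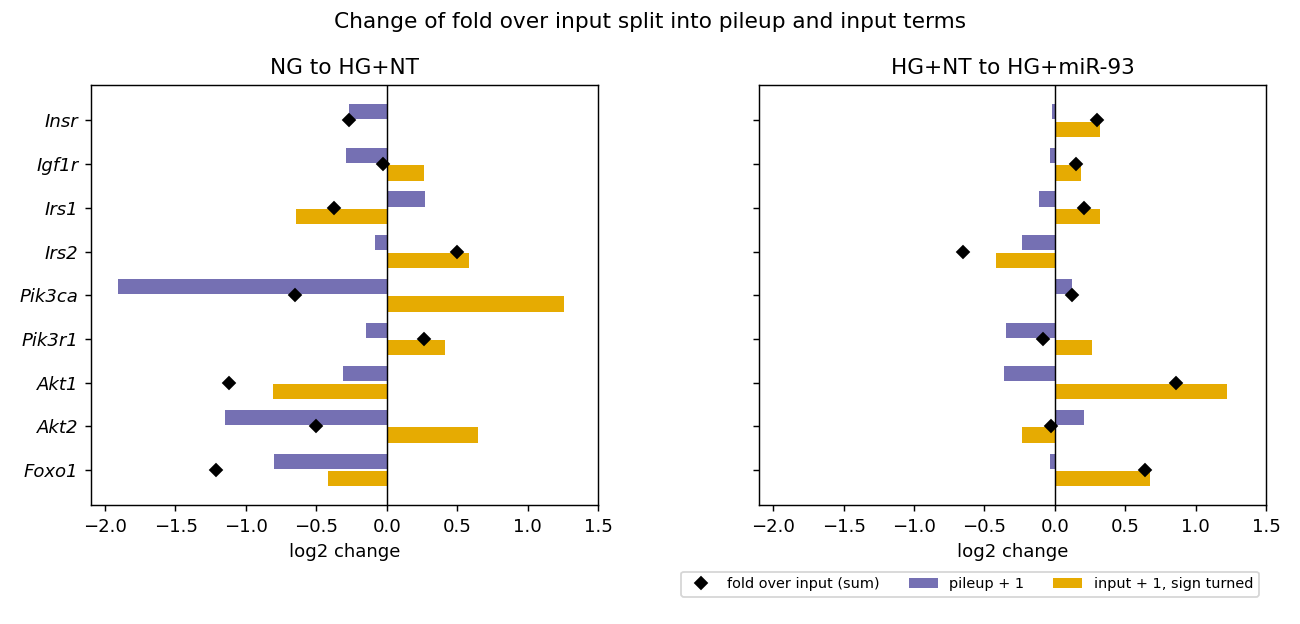
Log2 change of the fold over the input (diamonds) in the glucose step, left, and the mimic step, right, with its 2 terms as bars from 0: the pileup + 1 (purple) and the input mean + 1 with its sign turned (yellow), which add up to the diamond. The bars of *Pik3ca* and *Akt2* on the left, and of *Akt1* and *Akt2* on the right, compare peaks at different starts, and on the right the input bar is the longer one at 7 of the 9 genes.

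Of the 48 other pathway genes, 10 (20.8%) had a percentile by fold at least 20 points higher in HG+NT than in NG, and 20 (41.7%) one at least 20 points lower, beside the 24.6% and 24.5% of all genes given above. In NG the median percentile by fold was 73.8 over the 48 and 50.9 over all genes, which leaves the 48 more room below than above. Shares among genes of like starting rank were not computed. By role, the genes that were lower were 3 of 7 receptors and adaptors, 1 of 4 PI3-kinase subunits, 4 of 8 kinases, 5 of 13 inhibitors, 7 of 12 outputs and 0 of 4 ligands, and those that were higher were 2 ligands, 1 receptor or adaptor, 4 inhibitors and 3 outputs. The largest downward differences were at *Mtor*, the kinase of the mTOR complexes (87.3 to 6.10), *Pik3cb*, which encodes the p110β catalytic subunit (92.6 to 13.3), and *G6pc*, the glucose-6-phosphatase gene that FOXO1 activates in the liver (69.1 to 3.06). The largest upward differences were at *Irs4* (8.69 to 84.3), a further docking protein gene, *Socs1* (20.9 to 81.0), an inhibitor of cytokine and insulin signalling, and *Phlpp1* (43.9 to 98.8), an Akt phosphatase gene. By pileup the *Mtor* ratio was 1.06 (0.580 to 1.98), and of its log2 fold change of −1.39, −0.07 was in the pileup.

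In the mimic step, 13 of the 48 were higher by at least 20 points (27.1%) and 8 lower (16.7%), beside 20% and 20.1% of all genes. Among those with the largest upward differences were *Socs3* (20.4 to 88.4) and *Tsc1*, which restrains mTOR (18.5 to 80.3), and those with the largest downward differences *Socs1* (to 24.1), *Phlpp1* (to 45.3) and *Eif4ebp1*, a translation repressor that mTOR phosphorylates (94.4 to 57.9). HG+NT was the highest or lowest list at 36 of the 48 (75.0%), beside 62.0% of all genes.

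By pileup, 5 of the 48 (10.4%) reached a ratio of 1.5 in the glucose step and 2 (4.17%) its inverse, beside 9.85% and 9.98% of all genes. In the other step 1 (2.08%) did so in each direction, beside 3.62% of all genes. Intervals lay above 1 at 2 of the 48 (4.17%) and below 1 at 1 (2.08%) in the glucose step, beside 1.56% and 1.68% of all genes. They were those of *Eif4ebp1*, 2.66 (1.31 to 5.96), *Gsk3b*, the glycogen synthase kinase gene, 1.57 (1.08 to 2.34), and *G6pc*, 0.397 (0.169 to 0.887). The mimic step had 0 above 1 (0.321% of all genes) and 1 below (2.08%, beside 1.34% of all genes), that of *Phlpp2*, a further Akt phosphatase gene, 0.650 (0.423 to 0.992). *Gsk3b* and *Phlpp2* were named after their values had been seen. The median ratios of the 48 were 0.944 and 1.01, against 0.997 and 0.880 for the 9 genes.

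**Figure D5:**
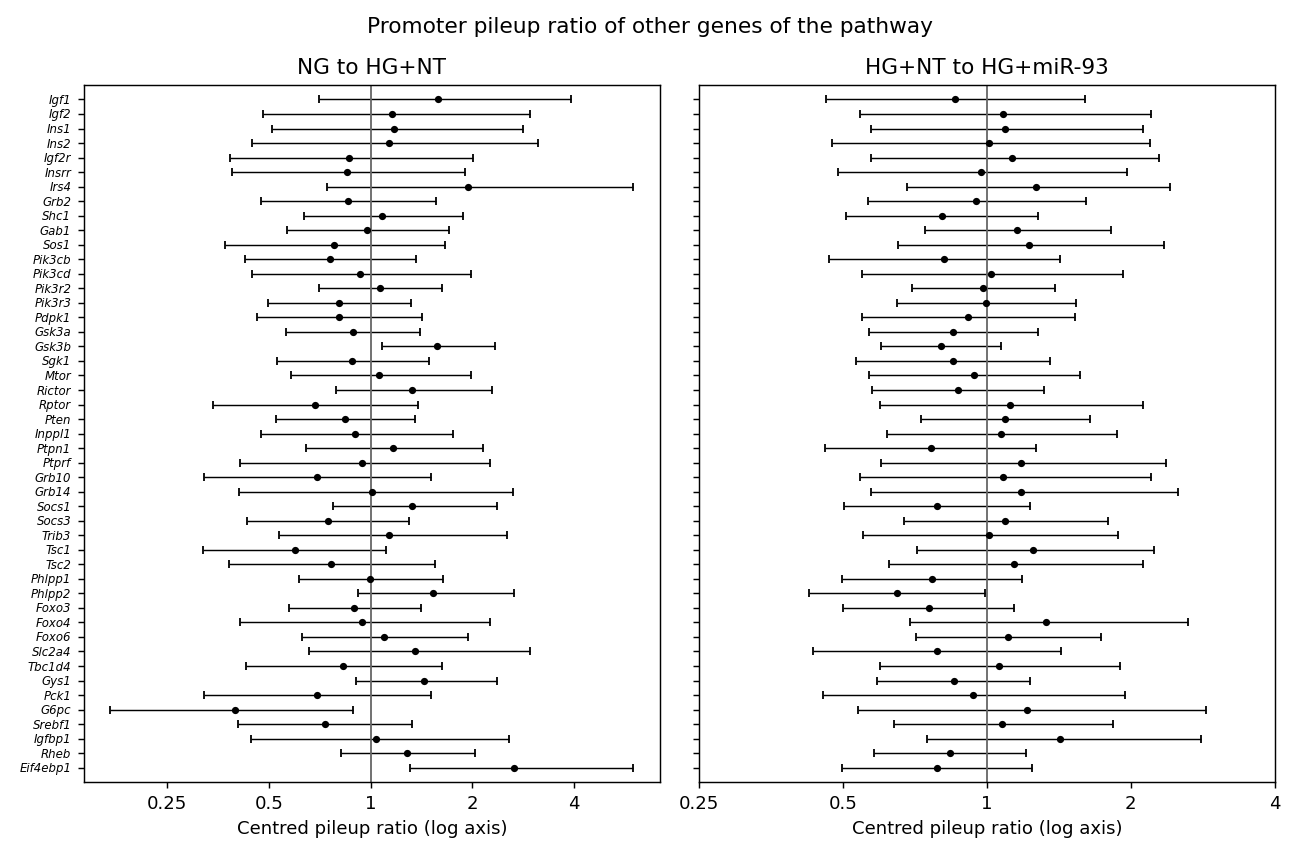
Ratio of promoter pileups of other pathway genes (log axes of different range), divided by the median of all genes, in the glucose step, left, and the mimic step, right, with 95% exact conditional intervals. Genes are ordered by role, from ligands at the top to outputs at the bottom. Intervals exclude 1 at *Gsk3b*, *G6pc* and *Eif4ebp1* on the left and at *Phlpp2* on the right.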

How the data were processed

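DNase-Seq reads of 6 podocyte samples and 1 input had been basecalled with CASAVA 1.8.2, trimmed, mapped to mm10 with Bowtie, filtered for duplicates and called with MACS2 against the input by the authors. The pooling of replicates was read from the joint list names, and the MACS2 settings are not given in the sources used here. The deposited lists hold the authors' fold (a ratio of pileup + 1 to input mean + 1), −log10 p and −log10 q per peak, and a score by the authors' peak caller that was not used.

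Fragments and input means were solved from fold and p. Of several solutions, the one with an input mean on a grid of 0.02 was taken. This rule was set once the values were known. The solution was tested on simulated data whose input means lay on that grid or at the mean of the input's background. This test cannot show that the real input means do. TSSs were those of GENCODE vM21. Ratios have exact conditional (Clopper-Pearson) 95% intervals, which cover counting error only and take the input as fixed. The 9 genes, the 48 pathway genes, the marker lists and the motifs were chosen with earlier results of these data known. Named were all 9 genes and, of the 48, up to 3 genes among those with the largest upward and downward differences in each step. A further 2 genes were named after their values had been seen. A few genes of the lists are neither named nor plotted here. Python 3.11.15, pandas 2.3.3 and scipy 1.17.1 were used.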

Additional observations from a re-analysis of the deposited data

How the results depend on the processing

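No paired analysis was possible because each list joins its replicates, and for the same reason no replicate could be left out. The count of genes past 20 points in the glucose step (6 of 9) became 1 when ranked by pileup and 2 of the 2 genes left at a −log10 p of at least 2. In the mimic step (4 of 9) it became 1 by pileup, 2 of 2 at that −log10 p and 7 at 10 points. The count with HG+NT highest or lowest (8 of 9) became 3 of the 5 genes with a summit within 500 nt in each list (62.6% of all genes so measured) and 2 of 2 at that −log10 p (65.0%). Past a ratio of 1.5 (1 of 9 in the glucose step), 3 genes were counted with the pileup of the peak of highest fold, 2 at the lower and 0 at the higher threshold. In the mimic step (0 of 9), 2 were counted without centring, 3 at the lower threshold and 1 with the fewest fragments, an alternative chosen after seeing the data that gave *Irs2* 0.331. Except for the shares given here and for the ranking by pileup, shares of all genes under these settings were not set beside the counts. The counts are thus not shown to be a trait of the 9 genes.

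Of 158 percentile changes recomputed for single genes, 4 left the interval of the main change without turning their sign. They include *Akt1* in the glucose step, with −1.54 points by pileup in place of −71.8. In the mimic step, the direction was kept under 4 of 9 alternatives at *Akt2* and 5 of 8 at *Pik3ca*, where the main changes were below 20 points. Turns of sign were counted only at main changes of at least 20 points, and there were 7. By pileup, *Irs2* changed by −0.821 and 0.493 points in the 2 steps, *Akt2* by 5.0 (glucose step) and *Akt1* by −17.9 (mimic step). With folds summed, *Akt2* changed by 0.591. With the input mean averaged over the lists, chosen after seeing the data, *Pik3r1* changed by −3.02 (glucose step) and *Akt1* by −25.3 (mimic step). *Foxo1* was lower in HG+NT than in NG under all 9 alternatives for its percentile and all 8 for its ratio (0.545 to 0.635), but ranked by pileup it changed by −17.8 points, under the 20 counted. Its difference of 43.1 points in the mimic step became 0.876 with the input mean averaged and 4.21 by pileup. The causes were not tested. With 17 to 56 fragments at a member's highest summit, the intervals of all members' ratios included 1, that of 0.609 at *Foxo1* too.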
